A study of Mus musculus with 6 samples.

Results

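The genes described here carry glucose from the cell surface to lactate, or divert it into the pentose phosphate pathway. They were chosen as a list of 37 named genes covering glucose transporters, the enzymes of glycolysis, lactate dehydrogenases, lactate transporters, pyruvate dehydrogenase kinases and enzymes of the pentose phosphate pathway. Each gene was represented by the probe with 1 gene symbol that had the highest mean over the 6 arrays. This gave values for 31 of the 37 genes, out of 22180 genes in all. Gpi1, Pfkfb1, Eno1 and G6pdx had no listed probe, and Aldoa and Tkt were listed only on probes that also carry other symbols, so these 6 genes were not analysed here.

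Glycolysis splits glucose into pyruvate in the cytosol and yields ATP without oxygen, and lactate dehydrogenase then turns pyruvate into lactate, which leaves the cell through monocarboxylate transporters. Most steps are served by several related enzymes that differ in tissue, affinity and control, so that a cell is characterised by which family members it uses. The pentose phosphate pathway branches off after the first phosphorylation and supplies NADPH and ribose. Blood stem cells in hypoxic marrow and endothelial cells are both known for a strong reliance on glycolysis.

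Expression was compared between YFP-positive and YFP-negative bone marrow LSK cells, that is, lineage-negative cells carrying Sca-1 and Kit, with 3 arrays for each population. Cells of both populations came from C57Bl6 mice that carried Tg(Cdh5-Cre/ERT2) together with the Rosa 26 YFP reporter, received tamoxifen on days 1, 2 and 3 after birth and were analysed at postnatal day 27. The Cdh5 promoter is active in endothelium, so YFP marks cells in which it was active while tamoxifen was present, and their progeny. The unmarked cells were exposed to tamoxifen as well, and no group without Cre or without tamoxifen was analysed here. The labels do not tell whether the replicates were separate animals or pools. The p-values therefore speak of variation among these 6 samples alone, and it may be technical.

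The array medians lay between 3.62 and 3.68 on the log2 scale of the deposited values, and 1074 of 22180 genes (4.84%) passed limma's test at an adjusted p of 0.05. Cdh5 itself, the gene of the vascular cadherin, measured 11.63, 11.84 and 11.29 in YFP-positive cells, against 5.40, 4.55 and 3.71 in YFP-negative cells. Kit, part of the sort gate, measured 6.98, 6.56 and 7.06 in YFP-positive cells, against 7.57, 7.96 and 7.74 in YFP-negative cells (adjusted p = 0.0496, and 0.0598 to 0.148 with any 1 array left out). In that comparison 14 of 15 endothelial markers were higher in YFP-positive cells, with a summed level (log2 of the summed linear values) of 13.45 to 13.92 against 8.91 to 9.94 in YFP-negative cells. Of 9 blood stem and progenitor markers, 6 were lower, with summed levels of 9.02 to 9.48 in YFP-positive cells, against 11.33 to 11.57 in YFP-negative cells, and Slamf1 lay below the array median on every array. Of 15 broad leukocyte markers 1 was lower, Vav1, and without YFP-positive replicate 3 it was 8. Their summed level on the 3 YFP-positive arrays was 11.06, 11.44 and, for replicate 3, 13.13, which lies above the YFP-negative range of 12.83 to 12.91. On the endothelial markers replicate 3 stayed with the other YFP-positive arrays, a median of 3.20 above the YFP-negative mean against 3.46 and 3.65. Of 14 neutrophil markers 0 passed (0 at an unadjusted p under 0.05), and their summed level was highest on the arrays numbered 3, at 14.78 in the YFP-positive and 14.53 in the YFP-negative one. Among 10 macrophage genes 3 were higher, Mertk, Vcam1 and Mrc1. The other 7 (Adgre1, Cd68, Csf1r, C1qa, C1qb, C1qc and Cd163) did not pass, with differences from -0.22 to 0.2. In the remaining marker lists, 1 of 6 B cell and 2 of 9 proliferation genes were lower (6 of the 9 without YFP-positive replicate 3). Of 8 erythroid, 5 megakaryocyte and 7 stromal genes 0 passed (1, 0 and 3 at an unadjusted p under 0.05). The part of these cell type markers in the results below was not tested. In such sorted bulk samples, fewer cells of a type and less RNA per cell cannot be told apart.

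Of the 31 measured genes, 1 fell in YFP-positive cells, Ldhb, where 1.96% of all genes fell, and 0 rose, where 2.88% of all genes rose. The 1 gene is 3.23% of the list, near the 4.84% of all genes that passed in either direction. An unadjusted p under 0.05 was reached by 9 genes (4 higher, 5 lower), or 29.0%, against 17.2% of all genes. 18 differences lay below 0 and 13 above, with a median of -0.08 against -0.01 for all genes. The median absolute difference was 0.28 on the log2 scale, against 0.17 for all genes, and 3 genes (Ldhb, Slc16a1 and Pdk3) differed by at least 1, as did 8.79% of all genes. Arrays of the populations did not overlap for 7 genes (22.6%), namely Hk1, Tpi1, Pgk1, Ldhb and Pdk3 with lower values and Pklr and Slc16a3 with higher values in YFP-positive cells. Over all genes the share without overlap was 22.7%. A change of 2-fold or more, a log2 difference beyond -1 or 1, was outside the 95% interval for 17 genes (54.8%), against 72.7% of all genes. The remaining 14 genes had intervals that reach a 2-fold change in at least 1 direction. Of the 31 genes, 26 had a mean level above the median over all genes. The comparisons with all genes in this paragraph did not take level into account.

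**Figure D1:**
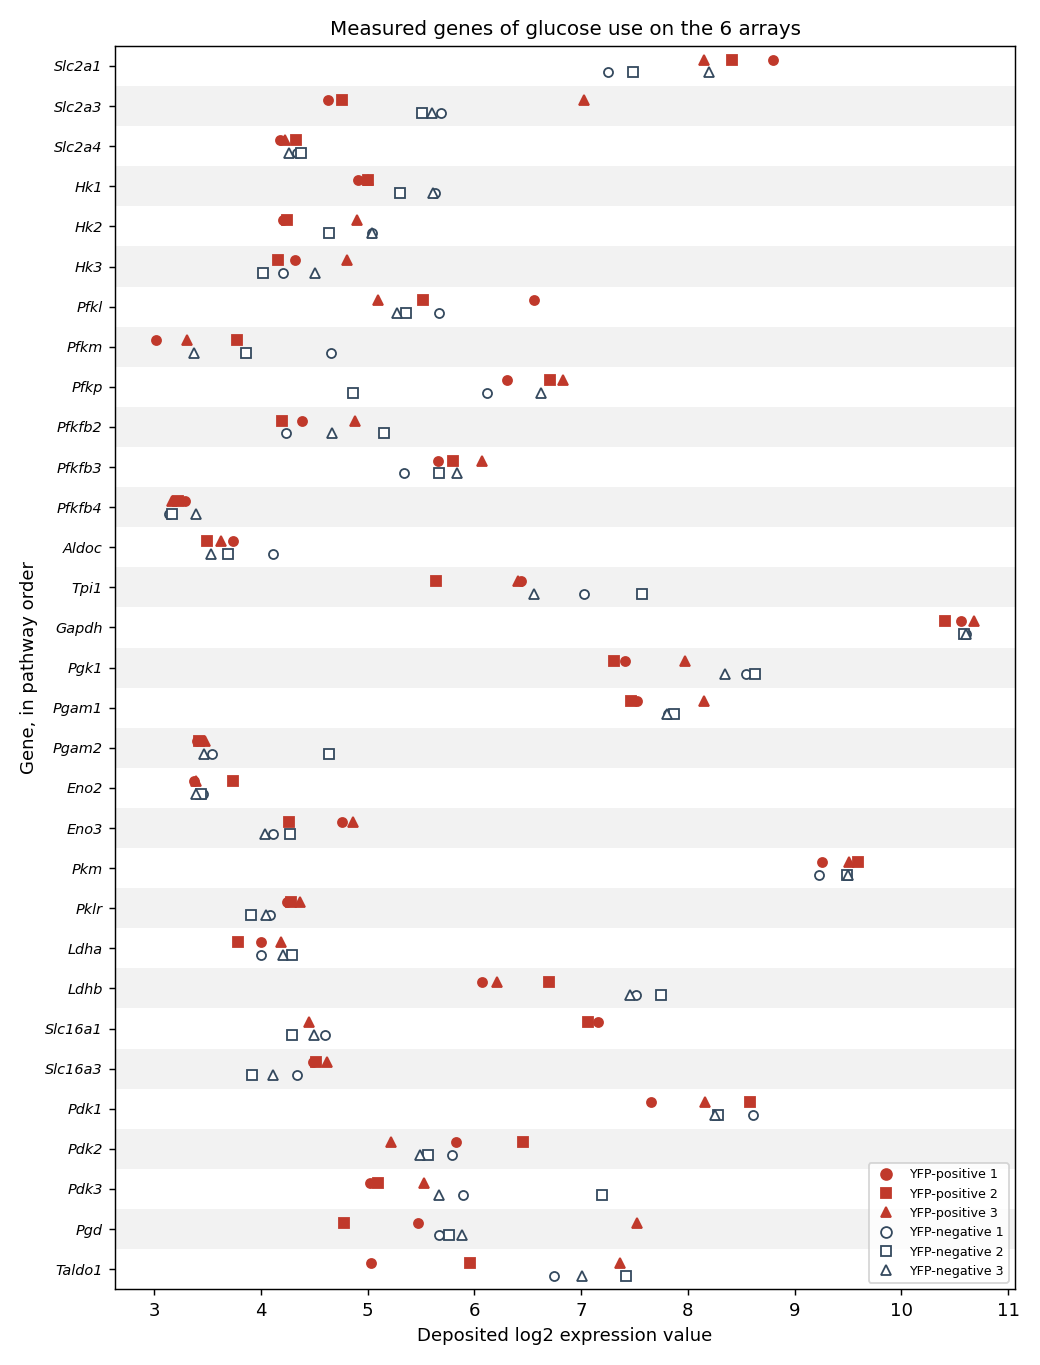
Deposited log2 values (horizontal axis) of the 31 measured genes in pathway order, with 1 symbol per array, filled for YFP-positive and open for YFP-negative cells. For Ldhb the YFP-positive arrays lie between 6.07 and 6.70 and the YFP-negative arrays between 7.46 and 7.75, and for Slc16a1 the YFP-positive arrays 1 and 2 stand at 7.16 and 7.06, apart from all others.

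Among the glucose transporters none passed limma's test. Slc2a1, which encodes GLUT1, the basal glucose transporter of many cells and a main one of endothelium, measured 8.80, 8.41 and 8.15 in YFP-positive cells, against 7.25, 7.49 and 8.20 in YFP-negative cells. The populations overlapped through YFP-negative replicate 3, and the difference was 0.80 ± 0.29 (SE, 95% interval 0.09 to 1.52, adjusted p = 0.23). A second, dimmer probe of Slc2a1 had means of 4.00 on YFP-positive arrays and 4.09 on YFP-negative arrays and did not show that difference. Slc2a3, which encodes GLUT3, a high-affinity transporter of neurons and leukocytes, measured 4.63, 4.76 and 7.03 in YFP-positive cells, against 5.69, 5.51 and 5.60 in YFP-negative cells. Its YFP-positive replicates 1 and 2 thus lay below, and replicate 3 above, every YFP-negative array. Slc2a4, the insulin-regulated transporter of muscle and fat, averaged 4.25 ± 0.08 in YFP-positive cells, against 4.33 ± 0.06 in YFP-negative cells (SD, n = 3 each), with an interval of -0.33 to 0.17.

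Hexokinases trap glucose in the cell by phosphorylating it. Hk1, the broadly expressed mitochondrial form, measured 4.91, 5.0 and 5.0 in YFP-positive cells, against 5.63, 5.30 and 5.61 in YFP-negative cells. All YFP-positive arrays lay below all YFP-negative ones by a small margin, a difference of -0.54 ± 0.13 (SE) that did not pass (adjusted p = 0.08). Hk2, the inducible form of growing and muscle cells, measured 4.21, 4.25 and 4.90 in YFP-positive cells, against 5.04, 4.64 and 5.04 in YFP-negative cells (difference -0.45, adjusted p = 0.401). Hk3, a form typical of myeloid cells, averaged 4.43 ± 0.34 in YFP-positive cells, against 4.25 ± 0.24 in YFP-negative cells (SD, n = 3 each). In both populations its highest value came from the array numbered 3, at 4.81 and 4.51.

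Phosphofructokinase commits the sugar to glycolysis and is built from liver (Pfkl), muscle (Pfkm) and platelet (Pfkp) type subunits. None of the 3 passed, and all 3 varied widely within a population. Pfkp measured 6.31, 6.71 and 6.83 in YFP-positive cells, against 6.12, 4.86 and 6.62 in YFP-negative cells (difference 0.75 ± 0.45, adjusted p = 0.494), and without YFP-negative replicate 2 the difference was 0.25. Pfkl had one high value, 6.56 in YFP-positive replicate 1, and otherwise lay between 5.10 and 5.67 over both populations. Pfkm averaged 3.37 ± 0.39 in YFP-positive cells, against 3.96 ± 0.65 in YFP-negative cells (SD, n = 3 each), with an interval of -1.48 to 0.30, and its difference of -0.59 was -0.24 without YFP-negative replicate 1. The PFKFB enzymes set the level of the sugar bisphosphate that activates phosphofructokinase. Pfkfb3, the form best known from endothelial glycolysis, measured 5.66, 5.80 and 6.07 in YFP-positive cells, against 5.34, 5.67 and 5.84 in YFP-negative cells. The groups overlapped, and the interval of -0.21 to 0.66 did not reach a 2-fold change. Pfkfb2, the heart form, averaged 4.49 ± 0.35 in YFP-positive cells, against 4.69 ± 0.45 in YFP-negative cells (SD, n = 3 each). Pfkfb4, a hypoxia-inducible form, averaged 3.23 ± 0.06 in YFP-positive cells, against 3.23 ± 0.13 in YFP-negative cells. Pfkfb4 was the only measured gene of the list that lay below the median of every array, where a level cannot be told from background. Pgam2 lay below the median on every array except YFP-negative replicate 2, and Eno2 on every array except YFP-positive replicate 2. Pfkm and Aldoc lay below the median on some arrays, and the same limit holds for all those readings.

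None of the enzymes of the middle and lower pathway passed the test over all 6 arrays. Gapdh, the dehydrogenase that makes the first NADH of the pathway and a common loading control, measured 10.56, 10.41 and 10.68 in YFP-positive cells, against 10.60, 10.59 and 10.60 in YFP-negative cells. Its interval was -0.32 to 0.22, and its sign turned with quantile normalization (0.06). Of its other probes with 1 symbol, one gave a difference of -0.04 and a dim one -0.82. Pgk1, the kinase that makes the first ATP after the sugar is split, measured 7.41, 7.31 and 7.97 in YFP-positive cells, against 8.54, 8.63 and 8.35 in YFP-negative cells. The groups did not overlap, and the difference of -0.95 ± 0.20 (SE), 1.93-fold lower, did not pass (adjusted p = 0.0587). It was 2.22-fold lower past the threshold without YFP-positive replicate 3 (adjusted p = 0.0153), and the adjusted p was 0.0471 among genes above the median level. Tpi1, the isomerase of the triose phosphates, measured 6.44, 5.64 and 6.41 in YFP-positive cells, against 7.03, 7.57 and 6.56 in YFP-negative cells, also without overlap (difference -0.89 ± 0.33, adjusted p = 0.241).

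Among the aldolases, mutases and enolases, Aldoc, the brain-type aldolase, averaged 3.62 ± 0.12 in YFP-positive cells, against 3.78 ± 0.30 in YFP-negative cells (SD, n = 3 each). Pgam1, the general phosphoglycerate mutase, measured 7.52, 7.47 and 8.15 in YFP-positive cells, against 7.81, 7.87 and 7.80 in YFP-negative cells, so that YFP-positive replicate 3 lay above and the other 2 below. The difference was -0.11, and a second, dimmer probe of Pgam1 gave 0.03. Its muscle counterpart Pgam2 read 3.40 to 3.48 in YFP-positive cells and 3.47 to 4.64 in YFP-negative cells, where the top value was replicate 2. Eno2, the neuronal enolase, averaged 3.50 ± 0.21 in YFP-positive cells, against 3.43 ± 0.03 in YFP-negative cells (SD, n = 3 each). Eno3, the muscle enolase, averaged 4.63 ± 0.32 in YFP-positive cells, against 4.14 ± 0.12 in YFP-negative cells. The difference of Eno3 was 0.48 ± 0.18 (SE) with a single overlapping pair of arrays, 4.26 in YFP-positive against 4.27 in YFP-negative replicate 2, and it did not pass (adjusted p = 0.253). Pkm, the pyruvate kinase of most tissues, measured 9.26, 9.59 and 9.51 in YFP-positive cells, against 9.23, 9.49 and 9.50 in YFP-negative cells. Its interval of -0.29 to 0.38 was among the narrow ones, and the annotation does not say which of its splice forms the probe reads. Pklr, the liver and red cell pyruvate kinase, measured 4.25 to 4.37 in YFP-positive cells, against 3.91 to 4.09 in YFP-negative cells (difference 0.28 ± 0.11, adjusted p = 0.254).

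The lactate steps held the one gene past the threshold and the gene with the widest difference. Ldhb encodes the heart-type subunit of lactate dehydrogenase, which favours the use of lactate as a source of pyruvate. It measured 6.07, 6.70 and 6.21 in YFP-positive cells, against 7.51, 7.75 and 7.46 in YFP-negative cells. Every YFP-positive array lay below every YFP-negative array, and the gene was 2.37-fold lower (difference -1.25 ± 0.19, SE, 95% interval -1.71 to -0.78, adjusted p = 0.0216 by limma). The call held without YFP-positive replicate 2 (adjusted p = 0.0174). It was lost at adjusted p = 0.0647 and 0.0529 without YFP-positive replicates 1 and 3, and at 0.0793, 0.0851 and 0.0605 without YFP-negative replicates 1, 2 and 3, while the difference stayed between -1.43 and -1.12 over these 6 fits. In the same comparison 6 of 9 blood stem and progenitor markers and 2 of 9 proliferation markers were lower past the threshold, and 14 of 15 endothelial markers higher. Their part in the difference of Ldhb was not tested. Ldha, the muscle-type subunit that favours lactate formation and a known hypoxia target, measured 4.00, 3.79 and 4.19 in YFP-positive cells, against 4.00, 4.29 and 4.21 in YFP-negative cells. These readings lay close to the array medians, which is low for a gene that is usually well expressed, and how well the probe reads Ldha could not be checked here. The interval was -0.53 to 0.19.

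Slc16a1 encodes MCT1, a lactate and pyruvate carrier that works in both directions, and it had the largest measured difference of the 31 genes. It measured 7.16, 7.06 and 4.45 in YFP-positive cells, against 4.60, 4.29 and 4.50 in YFP-negative cells. YFP-positive replicates 1 and 2 stood far above all other arrays, and replicate 3 stood within the YFP-negative range. The difference of 1.76 ± 0.73 (SE) did not pass over all 6 arrays (adjusted p = 0.293), and without YFP-positive replicate 3 it was 2.65 ± 0.15, 6.26-fold higher (adjusted p = 0.00155). Slc16a3 encodes MCT4, the lactate exporter of strongly glycolytic cells. It measured 4.49, 4.52 and 4.62 in YFP-positive cells, against 4.34, 3.92 and 4.11 in YFP-negative cells, without overlap but with a small difference (0.42 ± 0.14, adjusted p = 0.181).

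**Figure D2:**
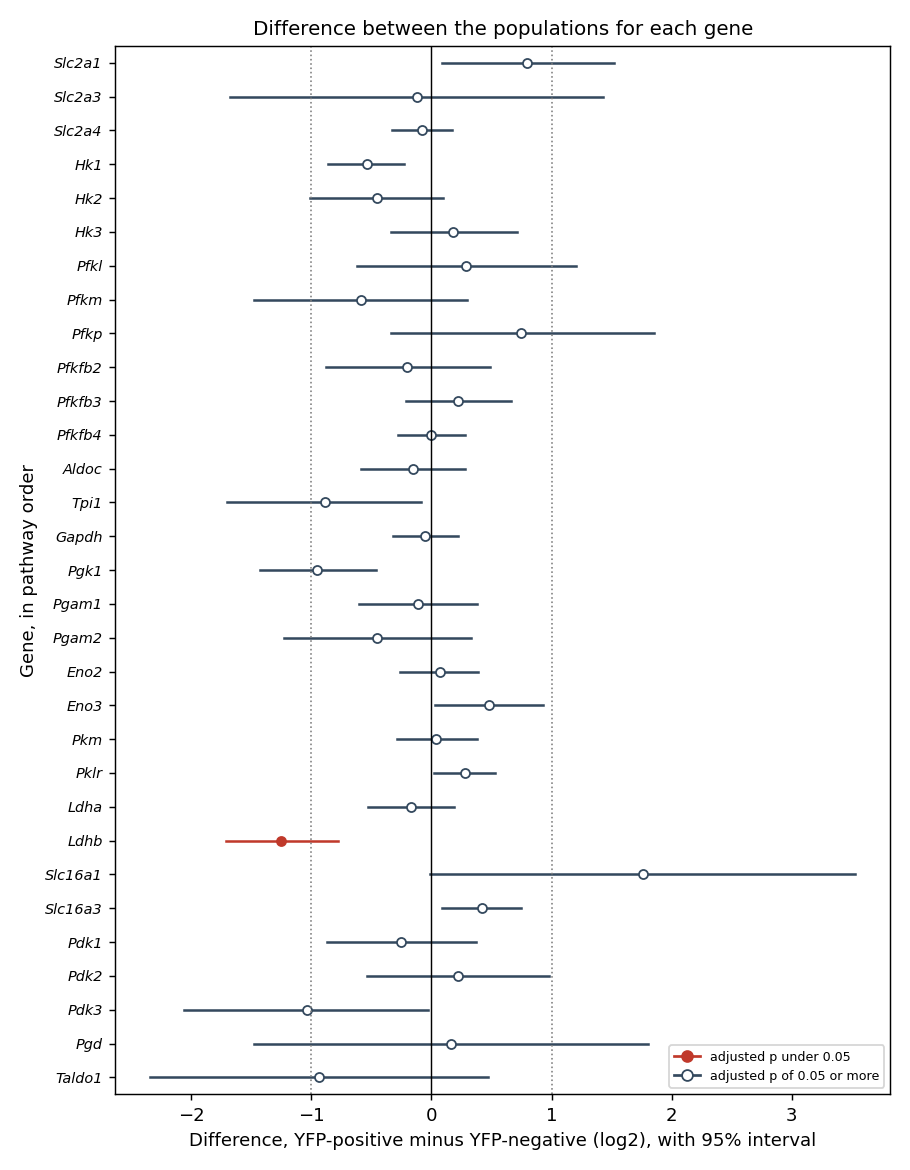
Log2 difference of each measured gene between YFP-positive and YFP-negative arrays, positive where YFP-positive is higher (horizontal axis), with its 95% interval from limma; dotted lines mark -1 and 1. Ldhb at -1.25 is the filled point past the threshold, and Slc16a1 at 1.76 has the widest interval, -0.01 to 3.53.

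Pyruvate dehydrogenase kinases hold back the use of pyruvate inside the mitochondrion by switching off pyruvate dehydrogenase. Pdk1, a hypoxia target, measured 7.65, 8.58 and 8.16 in YFP-positive cells, against 8.61, 8.28 and 8.25 in YFP-negative cells. The difference was -0.25, and a second, dimmer probe of Pdk1 gave -0.03. Pdk2, a widely expressed form, measured 5.83, 6.46 and 5.22 in YFP-positive cells, against 5.79, 5.57 and 5.49 in YFP-negative cells. Pdk1 and Pdk2 overlapped between the populations. Pdk3 measured 5.02, 5.10 and 5.53 in YFP-positive cells, against 5.89, 7.20 and 5.67 in YFP-negative cells. It was lower on every YFP-positive array, but the size rested on YFP-negative replicate 2, and the difference of -1.04 ± 0.42 (SE) did not pass (adjusted p = 0.279).

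In the pentose phosphate pathway 2 of the 4 listed enzymes were measured. Pgd, the phosphogluconate dehydrogenase that makes NADPH, measured 5.47, 4.78 and 7.52 in YFP-positive cells, against 5.67, 5.76 and 5.88 in YFP-negative cells. Taldo1, the transaldolase of the non-oxidative branch, measured 5.03, 5.96 and 7.36 in YFP-positive cells, against 6.75, 7.42 and 7.01 in YFP-negative cells. In both genes YFP-positive replicates 1 and 2 lay below every YFP-negative array while replicate 3 was the highest YFP-positive array. Neither passed with all arrays (adjusted p = 0.948 for Pgd and 0.508 for Taldo1). Without YFP-positive replicate 3 the differences were -0.64 for Pgd, which turned its sign, and -1.56 for Taldo1, 2.95-fold lower, still short of the threshold (adjusted p = 0.241 and 0.079).

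The single arrays differed in how many of these genes they set apart. In YFP-positive replicate 3, 4 of the 31 genes (12.9%) lay at least 1 from the mean of the other 2 YFP-positive arrays, against 5.84% of all genes. These were Slc2a3 (2.33 higher), Pgd (2.40 higher), Taldo1 (1.86 higher) and Slc16a1, with a gap of -2.66. In YFP-positive replicates 1 and 2 the same count was 4 and 3 genes, against 4.55% and 4.51% of all genes. Replicate 3 is part of the mean used for these 2 arrays, and all their genes but Pfkl were among those of replicate 3. In YFP-negative replicates 1, 2 and 3 it was 1, 3 and 1, against 3.45%, 3.73% and 4.5% of all genes. Ptprc, which encodes the leukocyte protein CD45, measured 6.52, 6.95 and 9.52 in YFP-positive cells, against 9.33, 9.23 and 9.37 in YFP-negative cells. Mki67, a proliferation marker, measured 7.54, 7.16 and 8.97 in YFP-positive cells, against 9.08, 8.64 and 8.82 in YFP-negative cells. S100a8, a neutrophil marker, measured 11.88, 12.29 and 12.59 in YFP-positive cells, against 10.53, 11.53 and 12.51 in YFP-negative cells. Slc2a3, Pgd and Taldo1 were high, and Slc16a1 low, on YFP-positive replicate 3, where Ptprc was high. On the YFP-negative arrays, where Ptprc was similar, Slc2a3 (5.51 to 5.69) and Pgd (5.67 to 5.88) lay below its values of 7.03 and 7.52. Taldo1 (6.75 to 7.42) and Slc16a1 (4.29 to 4.6) had ranges there that included its values of 7.36 and 4.45. The summed level of the erythroid markers was also highest among YFP-positive arrays on replicate 3, at 9.3. The part of these markers in the 4 genes was not tested. With YFP-positive replicate 3 left out, 3 genes of the list passed, beside 5.34% of all genes. Slc16a1 was higher and Pgk1 and Slc2a3 were lower in YFP-positive cells, and Ldhb missed the threshold. Slc2a3 was then 1.87-fold lower (-0.90 ± 0.13, SE, adjusted p = 0.0226). Without both arrays numbered 3, a choice made after seeing the data, Slc16a1 and Pgk1 passed (adjusted p = 0.00968 and 0.0309), beside 3.61% of all genes, and Slc2a3 did not (0.0714).

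**Figure D3:**
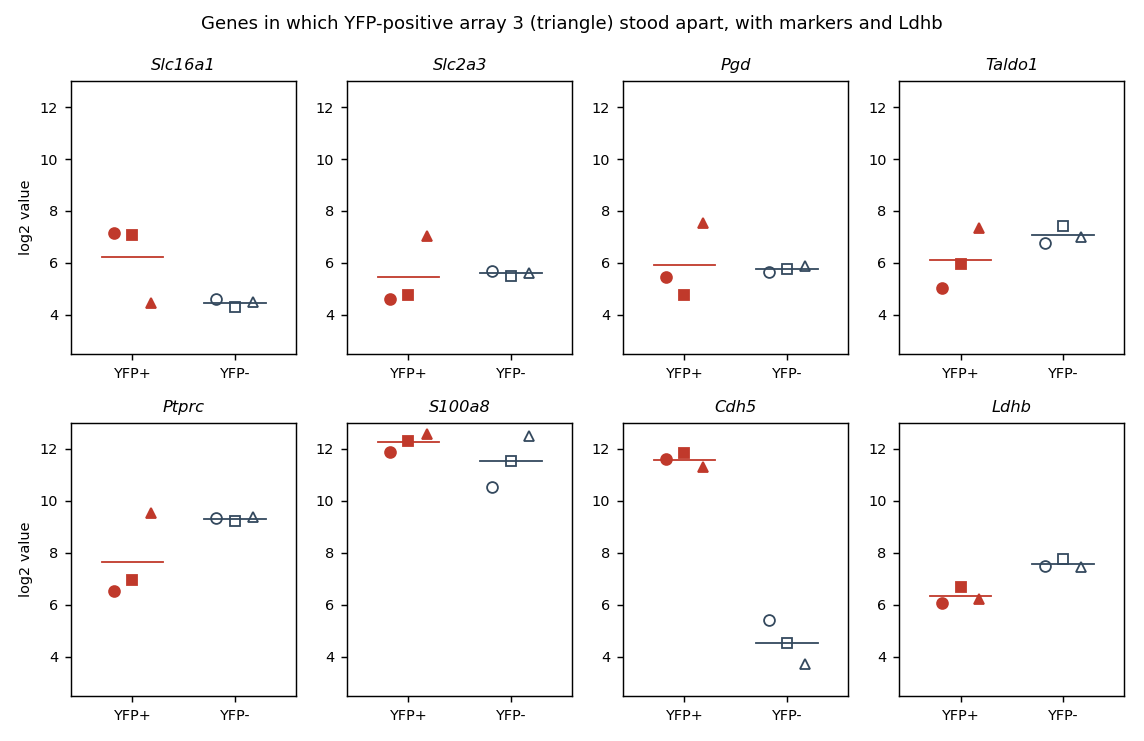
Log2 values (vertical axis) of 4 pathway genes, 3 marker genes and Ldhb, YFP-positive arrays left and YFP-negative arrays right, with a line at each mean and triangles for the arrays numbered 3. In YFP-positive cells the triangle is high for Slc2a3 (7.03), Pgd (7.52), Taldo1 (7.36) and Ptprc (9.52), low for Slc16a1 (4.45), and with its group for Cdh5 (11.29) and Ldhb (6.21).

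Levels of different probes cannot be set against each other, so which family member dominates was not read from the arrays. What can be compared is whether 2 members of a family shifted unequally, as the log2 difference of their probes within each array. Of 14 listed pairs 11 could be formed. For 2 of the 11 the populations did not overlap, Ldhb relative to Ldha and Hk3 relative to Hk1, beside 22.7% of all single genes, and Ldhb and Hk1 already did not overlap on their own. The first pair rests on the Ldha probe with its low readings. The Ldhb to Ldha difference was 2.07, 2.90 and 2.02 in YFP-positive cells, against 3.51, 3.46 and 3.25 in YFP-negative cells, a shift of -1.08. The Hk3 to Hk1 difference was -0.59, -0.84 and -0.19 in YFP-positive cells, against -1.42, -1.28 and -1.10 in YFP-negative cells, a shift of 0.72. Each had an exact two-sided permutation p = 0.1, the smallest that 3 against 3 arrays allow, and 0.489 after adjustment over the 11 pairs. None of the pairs can pass at this size. The other 9 pairs overlapped, with shifts from -1.34 (both Pfkm to Pfkp and Slc16a3 to Slc16a1) to 0.47 (Pdk2 to Pdk1). Some of the Pfkm readings lay below the array medians. The Slc16a3 to Slc16a1 difference was -2.67, -2.54 and 0.17 in YFP-positive cells, against -0.27, -0.36 and -0.39 in YFP-negative cells, which again separates YFP-positive replicates 1 and 2 from the rest.

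**Figure D4:**
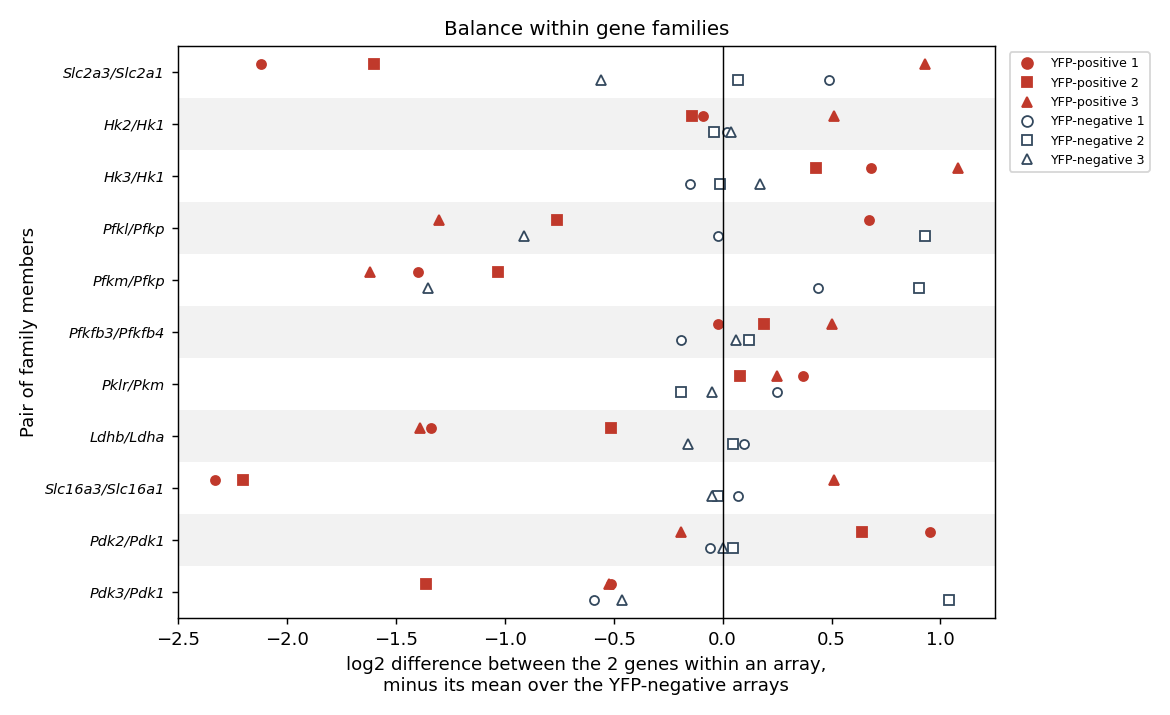
Log2 difference between 2 members of a family within an array, minus its mean over the YFP-negative arrays (horizontal axis), for 11 pairs. YFP-positive arrays (filled) lie wholly left of the YFP-negative ones (open) for Ldhb/Ldha and wholly right for Hk3/Hk1, and overlap them in the other 9 pairs.

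The promoters of the 3 genes with the smallest p, Ldhb, Pgk1 and Hk1, are shown because oxygen-sensing factors and Myc are known to act on glycolytic promoters through short motifs. Slc16a1 was added after its values were seen, as the gene with the largest difference. The windows come from RefSeq on GRCm38.p6 and run from 250 bases before to 50 after a gene's start, 300 bases in all, and 29 of the 31 genes matched, all but Slc2a3 and Slc2a4. Capitals mark matches on either strand to ACGTG or GCGTG, the core of the hypoxia response element, to CACGTG, the E-box that contains ACGTG, and to GGGCGG, the GC box.
Ldhb (chr6:142507908-142508207, minus strand): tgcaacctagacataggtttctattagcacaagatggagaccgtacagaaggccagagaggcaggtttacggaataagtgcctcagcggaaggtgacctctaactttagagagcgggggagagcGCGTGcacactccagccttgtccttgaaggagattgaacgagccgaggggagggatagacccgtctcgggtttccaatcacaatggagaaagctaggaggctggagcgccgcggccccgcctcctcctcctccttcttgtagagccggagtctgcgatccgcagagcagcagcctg
Pgk1 (chrX:106186850-106187149, plus strand): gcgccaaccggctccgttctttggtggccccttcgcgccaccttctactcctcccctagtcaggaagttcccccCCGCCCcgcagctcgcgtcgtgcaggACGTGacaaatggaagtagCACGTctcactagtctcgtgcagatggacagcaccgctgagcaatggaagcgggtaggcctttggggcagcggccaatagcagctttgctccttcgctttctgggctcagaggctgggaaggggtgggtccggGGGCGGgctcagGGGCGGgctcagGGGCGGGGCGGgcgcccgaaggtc
Hk1, upstream start (chr10:62379859-62380158, minus strand): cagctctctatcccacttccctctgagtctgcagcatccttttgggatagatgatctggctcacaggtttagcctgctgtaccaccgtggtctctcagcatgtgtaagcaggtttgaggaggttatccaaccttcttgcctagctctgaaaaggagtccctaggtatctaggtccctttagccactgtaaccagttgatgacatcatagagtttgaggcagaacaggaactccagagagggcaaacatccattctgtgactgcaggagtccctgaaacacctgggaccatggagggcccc
Hk1, downstream start (chr10:62340372-62340671, minus strand): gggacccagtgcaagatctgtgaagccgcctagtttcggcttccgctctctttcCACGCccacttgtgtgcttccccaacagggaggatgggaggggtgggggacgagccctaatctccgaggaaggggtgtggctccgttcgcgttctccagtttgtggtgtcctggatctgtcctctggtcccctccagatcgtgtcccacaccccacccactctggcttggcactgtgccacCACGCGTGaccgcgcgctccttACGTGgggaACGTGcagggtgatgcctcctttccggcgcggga
Slc16a1 (chr3:104638414-104638713, plus strand): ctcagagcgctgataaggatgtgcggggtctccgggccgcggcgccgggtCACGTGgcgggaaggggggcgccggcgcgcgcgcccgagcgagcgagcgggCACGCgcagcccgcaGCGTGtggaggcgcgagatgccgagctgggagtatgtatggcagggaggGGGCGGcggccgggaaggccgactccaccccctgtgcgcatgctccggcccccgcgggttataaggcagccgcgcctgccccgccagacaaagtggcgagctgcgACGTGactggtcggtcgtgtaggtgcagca
The Ldhb window held 1 GCGTG and none of the other motifs. The Pgk1 window held 2 ACGTG and 5 GC boxes. Hk1 has 2 listed starts. The upstream window held none of the motifs and the downstream one 2 ACGTG and 3 GCGTG, and the array value does not say which start was in use. The Slc16a1 window held 3 ACGTG, of which 2 are the opposite strands of 1 CACGTG, together with 2 GCGTG and 1 GC box. At least 1 hypoxia core was found in a listed window of 25 of the 29 genes (86.2%), against 53.1% of 16990 tested genes with a window and 43.8% of all windows. CACGTG was found for 6 genes (20.7%), against 9.19% of tested genes and 7.15% of windows, and GGGCGG for 19 genes (65.5%), against 49.5% and 35.7%. These windows were also richer in G and C, with a median over genes of 63.3%, against 57.3% for all tested genes (richest window of each gene). In the window richest in cores, Ldha had 7, Gapdh 3 and Tpi1 0. Each CACGTG adds 2 to such a count, and a window of Ldha held 2 CACGTG. A match describes letters and not a bound site.

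Regulators of glucose use included genes that rose and a gene that fell. Of 24 listed regulators 23 were measured, of which 5 rose, 1 fell and 17 did not pass, where 2.88% of all genes rose and 1.96% fell. The list was written with earlier results of these data known. Epas1, which encodes the hypoxia-inducible factor HIF-2 alpha, measured 9.93, 9.78 and 9.48 in YFP-positive cells, against 3.27, 3.19 and 3.31 in YFP-negative cells (adjusted p = 4.3e-05). The YFP-negative readings lay below the array medians, where a level cannot be told from background, so that no fold is given. Hif1a, the main hypoxia-inducible driver of glycolytic genes, measured 9.37, 8.87 and 8.76 in YFP-positive cells, against 7.32, 7.65 and 7.48 in YFP-negative cells, 2.85-fold higher (1.51 ± 0.19, SE, adjusted p = 0.0126). Its call was lost without YFP-negative replicate 1 (adjusted p = 0.0551). The populations did not overlap for either gene.

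Txnip encodes an inhibitor of glucose uptake that rises with intracellular sugar phosphates. It measured 11.66, 11.43 and 11.17 in YFP-positive cells, against 10.14, 9.73 and 9.56 in YFP-negative cells, 3.06-fold higher (1.61 ± 0.20, SE, adjusted p = 0.0122). Its relative Arrdc4, which also restrains glucose uptake, measured 6.75, 7.19 and 7.58 in YFP-positive cells, against 4.78, 5.59 and 4.45 in YFP-negative cells, 4.71-fold higher (adjusted p = 0.0219). Foxo1, a transcription factor that slows endothelial metabolism, measured 8.05, 7.81 and 7.92 in YFP-positive cells, against 6.71, 6.37 and 6.95 in YFP-negative cells, 2.38-fold higher (adjusted p = 0.0161). None of these 3 overlapped between the populations. Txnip missed the threshold when YFP-negative replicate 2 was left out (adjusted p = 0.0559). Arrdc4 missed it without replicate 2 of the YFP-positive arrays and without replicates 1 and 3 of the YFP-negative ones (0.0731, 0.0905 and 0.0602), and Foxo1 without YFP-positive replicate 1 and YFP-negative replicate 1 (0.0608 and 0.0643). Meis1, a stem cell factor known to promote Hif1a expression and glycolysis in mouse stem cells, measured 4.35, 4.96 and 5.35 in YFP-positive cells, against 7.89, 7.42 and 7.39 in YFP-negative cells, and was the regulator that fell (-2.68 ± 0.28, SE, adjusted p = 0.00672). Meis1 is itself 1 of the 6 of 9 blood stem and progenitor markers that were lower. On the same arrays 14 of 15 endothelial markers were higher, and the part of these markers in the differences of these regulators was not tested.

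Of 18 listed hypoxia targets outside glycolysis, 16 were measured, 2 rose, 0 fell and 14 did not pass, where 2.88% of all genes rose and 1.96% fell. The median difference was 0.08. Ndrg1, a stress-regulated protein, measured 9.94, 10.48 and 9.61 in YFP-positive cells, against 7.07, 7.72 and 6.97 in YFP-negative cells, 6.74-fold higher (2.75 ± 0.29, SE, adjusted p = 0.00698). Adm, the vasoactive peptide adrenomedullin, measured 5.91, 4.99 and 5.81 in YFP-positive cells, against 3.30, 3.01 and 4.07 in YFP-negative cells (adjusted p = 0.0306). Of its YFP-negative readings 2 lay below the array medians, so that no fold is given. Adm missed the threshold without replicates 1 and 3 of the YFP-positive arrays and replicates 1 and 2 of the YFP-negative ones (adjusted p = 0.0975, 0.0714, 0.111 and 0.0997). Car9, a carbonic anhydrase named after its values were seen, measured 3.87, 4.66 and 4.35 in YFP-positive cells, against 5.43, 6.36 and 5.55 in YFP-negative cells, without overlap and short of the threshold (adjusted p = 0.0574). The call of Ndrg1 held whichever of the 6 arrays was left out, with adjusted p of at most 0.0374.

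**Figure D5:**
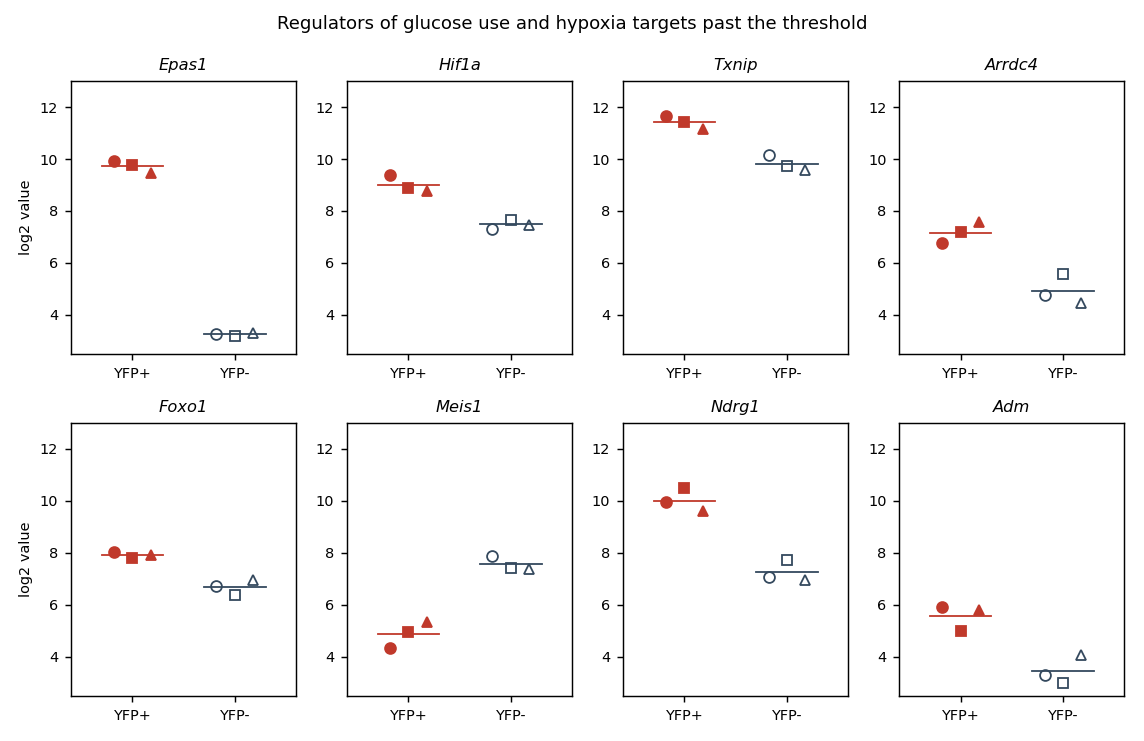
Log2 values (vertical axis) of the 6 regulators and 2 hypoxia targets past the threshold, YFP-positive arrays left and YFP-negative arrays right, with a line at each mean. Values of Epas1, Hif1a, Txnip, Arrdc4, Foxo1, Ndrg1 and Adm lie wholly higher, and those of Meis1 wholly lower, in YFP-positive cells.

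The neighbouring pathways gave 0 genes past the threshold, where 4.84% of all genes passed in either direction. Of 11 other hexose transporters 0 passed, and Slc2a5, the fructose transporter, had the smallest p (3.84, 3.55 and 3.36 in YFP-positive cells, against 3.30, 3.17 and 3.17 in YFP-negative cells). It did not pass (adjusted p = 0.282 by limma). Its YFP-negative readings, and those of YFP-positive replicates 2 and 3, lay below the array medians. Of 13 other glycolytic and lactate genes 0 passed. There, Slc16a7, which encodes the high-affinity carrier MCT2, measured 3.23 to 3.39 in YFP-positive cells, against 6.55, 3.97 and 3.84 in YFP-negative cells. The YFP-positive readings lay below the array medians. Of 10 other pentose phosphate genes 0 passed, and Tktl1 and Tktl2 lay below the median of every array. Prps2, a maker of activated ribose for nucleotides, came closest with 5.51, 5.56 and 4.85 in YFP-positive cells, against 6.60, 7.09 and 6.30 in YFP-negative cells (2.56-fold lower, adjusted p = 0.0516 by limma). Of 8 genes of gluconeogenesis, 16 of glycogen metabolism and 10 of pyruvate entry into and use in mitochondria, 0 passed in each. Their smallest p belonged to Pck2, the mitochondrial carboxykinase (1.45-fold lower, adjusted p = 0.177), Phka2, a regulatory subunit of phosphorylase kinase (2.25-fold lower, adjusted p = 0.0765), and Pdk4, a fasting-induced kinase of pyruvate dehydrogenase (adjusted p = 0.38). Phka2 passed without YFP-positive replicate 3 (adjusted p = 0.0232). Pdk4 measured 7.16, 4.78 and 4.84 in YFP-positive cells, against 4.84, 3.63 and 4.00 in YFP-negative cells, so that its size rested on YFP-positive replicate 1. At an unadjusted p under 0.05 these 6 lists held 1, 0, 2, 1, 2 and 0 genes in the order given, beside 17.2% of all genes.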

How the data were processed

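RNA of each sample, 500 pg, was amplified, biotin-labelled and hybridised to 1 array, per the labels' protocols. Partek is named, without a version, in the submitters' processing notes, and how background was corrected and probes normalized is not given in the sources used. The table deposited by the authors holds log2 expression values for 41345 probes and no detection calls, and the log2 scale was read from the values (1.53 to 13.7). Of these probes 23521 had 1 gene symbol, giving 22180 genes by the brightest probe. Differences, YFP-positive minus YFP-negative, were fitted in limma 3.58.1 under R 4.3.3 (lmFit and eBayes, population as the only term, two-sided, Benjamini-Hochberg over all 22180 genes, threshold 0.05), after the code was tested on simulated data. Alternatives were the mean of a gene's probes, quantile normalization, a filter on dim genes, unmoderated variance, an intensity trend with robust estimation, the replicate number as a block, and leaving out single arrays or both arrays numbered 3. The members, the 8 pathway lists and the 10 marker lists were chosen with earlier results of these data known. The rule for names took all members, up to 4 genes past the threshold (otherwise the one of smallest p) from each pathway list, and Cdh5, Ptprc, Kit, Mki67 and S100a8 as markers. Arrdc4, Foxo1, Vav1, Slamf1, Car9, Bhlhe40, Tktl1, Tktl2, the macrophage genes and the promoter of Slc16a1 are named outside it. The number of arrays limits the precision.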

Additional observations from a re-analysis of the deposited data

How the results depend on the processing

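The count of listed genes higher in YFP-positive cells past the threshold was 0 with all 6 arrays and 0 to 1 when single arrays were left out, and 1 (Slc16a1) without both arrays numbered 3. The count of lower genes was 1, against 2 of the 26 listed genes above the median level. It was 0 with unmoderated variance, and 0 to 2 when single arrays were left out. Over all genes 1074 passed, and 1210 in the smaller set of genes above the median level. The count over all genes was 180 with unmoderated variance, 580 with the replicate block, and 430 to 1185 without 1 array. Of the genes in the pathway lists 8 passed, 1 with unmoderated variance, and 4 to 9 without 1 array. The pairs without overlap numbered 2, against 2 to 6 without 1 array and 7 without both arrays numbered 3, where fewer arrays make overlap rarer by construction. The block rests on shared numbers alone. The deviations of same-numbered arrays correlated at r = 0.0985, 0.0806 and 0.167 across genes, each array with its own number best, a hint from the data and not from the design. With the block the 31 listed genes kept their side of the threshold (Ldhb adjusted p = 0.0339). Hif1a and Arrdc4 missed it (0.0554 and 0.0607) and Prps2, Car9 (lower) and Bhlhe40 (higher) passed (0.0327, 0.0295 and 0.0326). Quantile normalization turned the sign of Gapdh (0.06). Ldhb missed the threshold with unmoderated variance (-1.25, adjusted p = 0.123) and without both arrays numbered 3 (-1.25, adjusted p = 0.107). Leaving out arrays turned the sign of the differences listed next, none of which passed with all 6 arrays. Without 1 array they ranged from -0.90 to 0.30 for Slc2a3, -0.13 to 0.60 for Pfkl, -0.05 to 0.07 for Pfkfb4, -0.12 to 0.02 for Gapdh, -0.33 to 0.01 for Pgam1, -0.05 to 0.13 for Eno2, -0.04 to 0.14 for Pkm, -0.09 to 0.53 for Pdk2, -0.01 to 0.32 for Hk3, -0.64 to 0.73 for Pgd, -0.28 to 0.01 for Aldoc and -0.42 to 0.03 for Pfkfb2. Without both arrays numbered 3 Pfkfb4 gave 0.1 and Pgd -0.59. The causes were not tested.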
